A study of Mus musculus with 16 samples.

Results

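Gene symbols made of Gm and a number are placeholders that mouse annotation gives to predicted genes without a functional name. In RNA-seq of embryonic mouse ventricles, 117 of the 2246 Gm-numbered rows held had a mean of at least 5 TPM (the authors' level per transcript, scaled for length and library) over the 16 libraries, and these 117 of 5921 rows are described here. The members were chosen by this measured level, the mean TPM over all libraries, so it is a description and not a finding. The members just inside the level were Gm8283 at 5.05, Gm30786 at 5.05 and Gm5422 at 5.02 TPM. The rows just outside it were Gm4473 at 4.995, Gm6627 at 4.84 and Gm19680 at 4.80 TPM.

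The tissue was ventricle at E11.5, in 4 groups of 4 libraries described as biological replicates. A cardiomyocyte-specific conditional knockout (cKO) of Atf4, driven by the transgene Xmlc2-Cre, was made in a line with exons 2 and 3 of Atf4 floxed and in a line with exon 2 alone floxed, and each line had its own controls. Atf4 encodes a transcription factor of the amino acid and protein folding stress response. All libraries carry the genotype label C57BL/6 WT, and whether controls carried a floxed allele or Cre is not stated. The exon 2-3 line is labelled batch 1 and the exon 2 line batch 2, and differences between the lines cannot be told apart from differences between batches. The extraction text names cultured cortical neurons, but the 7 cardiomyocyte markers held (Tnnt2, Tnni1, Myl7, Myl4, Hand1, Pln and Gja1) summed to between 12820 and 18769 TPM in every library, and the neuronal markers Syt1 and Kif5a together to between 0.636 and 1.21 TPM. The rows held come from chromosomes 1, 10 and 11 and carry 15.2% to 17.1% of each library's total. TPM keeps no depth, so the reads behind each value are unknown and no counting interval is given.

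A processed pseudogene forms when a messenger RNA is copied back into DNA and inserted elsewhere in the genome, usually without introns or a promoter of its own. Genes with short and very abundant messenger RNAs, such as those of ribosomal proteins and Gapdh, have many such copies. A short read from the messenger RNA can match a recent copy as well as the parent gene, so the level listed for a copy depends on how reads with several matches are assigned. How the authors assigned them is not given in the sources used here, and the copies' levels are uncertain in that respect throughout.

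RefSeq lists 94 of the 117 members as pseudogenes, 6 as transcribed pseudogenes, 13 as long noncoding RNA (lncRNA), 3 as small nucleolar RNA (snoRNA) and 1, Gm7694, as protein coding. Chromosome 1 holds 46 of them, chromosome 11 holds 37 and chromosome 10 holds 34. The RefSeq kinds are used throughout, and GENCODE M21 differs for some members. It lists Gm2000, Gm12184 and Gm10273, pseudogenes here, and Gm48551 and Gm11627, lncRNAs here, as protein coding. Of the 100 pseudogene members, 96 had a transcript in GENCODE M21 with a close match to a transcript of a named gene, here called the parent. There were 29 copies of ribosomal protein genes, 65 copies of other genes of the nuclear genome and 2 copies of mitochondrial genes, and 4 pseudogenes were not matched. The 96 copies had 73 parents, and 11 parents had more than 1 copy. Gapdh, the glycolytic enzyme, and Rpl23a, a protein of the large ribosomal subunit, had 6 copies each. Hmgb1, which encodes a chromatin protein, had 4.

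The copies were close to their parents in sequence. Identity was taken over GENCODE M21 transcripts, some of them shorter than the row whose TPM is given. Over the aligned bases it ranged from 90.5% to 100% with a median of 98.7%. It was at least 99% in 42 copies and 100% in 11. The longest stretch identical to the parent had a median of 201 bases (75 to 1028), and it was 100 bases or more in 84 of the 96. Across the 96 copies a higher mean level went with a higher identity (Spearman's rho 0.559). This is a description and no finding, because copies are not independent and share all 16 libraries. The members were also chosen by this same mean level, so copies at lower levels are left out.

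The sequences below show this closeness for the members on which the comparisons turn, and all are from GENCODE M21 on GRCm38. The first set is the first 297 coding bases of Rpl23a with the matching bases of its most abundant copy, Gm10335 (chromosome 10, 14523078 to 14523545, plus strand, in an intron of Adgrg6 on the other strand), and the copy that differed most between the control groups, Gm7413 (chromosome 10, 59871221 to 59871682, minus strand, between genes). Capitals mark bases that differ from Rpl23a, 1 in Gm10335 and 6 in Gm7413, which also lacks 6 bases here; over the whole coding stretch Gm10335 differs at 1 base and Gm7413 at 12.
Rpl23a: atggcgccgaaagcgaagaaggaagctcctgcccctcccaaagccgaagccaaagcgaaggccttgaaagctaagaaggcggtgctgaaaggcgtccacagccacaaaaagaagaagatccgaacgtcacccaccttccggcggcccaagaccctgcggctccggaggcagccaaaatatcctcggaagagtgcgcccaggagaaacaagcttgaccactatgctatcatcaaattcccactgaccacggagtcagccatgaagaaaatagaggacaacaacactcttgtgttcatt
Gm10335: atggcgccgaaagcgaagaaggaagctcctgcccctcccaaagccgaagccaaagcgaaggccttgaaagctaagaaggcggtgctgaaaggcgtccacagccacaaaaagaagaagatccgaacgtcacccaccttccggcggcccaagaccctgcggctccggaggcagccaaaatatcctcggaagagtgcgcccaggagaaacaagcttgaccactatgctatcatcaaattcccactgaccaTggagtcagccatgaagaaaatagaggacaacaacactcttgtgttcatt
Gm7413: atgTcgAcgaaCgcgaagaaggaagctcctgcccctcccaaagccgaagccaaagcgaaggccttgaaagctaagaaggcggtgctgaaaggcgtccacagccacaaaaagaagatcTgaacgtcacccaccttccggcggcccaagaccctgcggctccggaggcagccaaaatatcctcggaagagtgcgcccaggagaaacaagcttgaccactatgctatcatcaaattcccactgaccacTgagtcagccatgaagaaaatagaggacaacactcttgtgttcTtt

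The next 3 copies are identical to their parents over the whole stretch shown, so they carry no capitals. Gm3699 (chromosome 10, 43456427 to 43456501, minus strand, in an intron of Pdss2 on the other strand) matches 75 bases of Rpl41, which encodes a very small ribosomal protein. The row whose TPM is given for Gm3699 spans 397 bases (43456143 to 43456539), and the rest of it was not compared with Rpl41. Gm15452 (chromosome 1, 8791923 to 8792162, minus strand, in an intron of Sntg1 on the same strand) matches 240 bases of Cks2, which encodes a subunit of cyclin-dependent kinase complexes. Gm10222 (chromosome 1, 24612407 to 24612700, minus strand, over an exon of Gm28439 on the same strand) matches 294 bases of mt-Nd4l, a mitochondrial gene for a subunit of respiratory complex I.
Gm3699: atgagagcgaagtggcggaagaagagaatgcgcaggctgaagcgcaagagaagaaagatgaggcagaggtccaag
Gm15452: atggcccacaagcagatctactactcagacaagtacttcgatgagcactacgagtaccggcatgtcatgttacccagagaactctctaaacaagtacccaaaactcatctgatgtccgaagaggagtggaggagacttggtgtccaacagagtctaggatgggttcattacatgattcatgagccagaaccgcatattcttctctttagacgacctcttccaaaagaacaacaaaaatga
Gm10222: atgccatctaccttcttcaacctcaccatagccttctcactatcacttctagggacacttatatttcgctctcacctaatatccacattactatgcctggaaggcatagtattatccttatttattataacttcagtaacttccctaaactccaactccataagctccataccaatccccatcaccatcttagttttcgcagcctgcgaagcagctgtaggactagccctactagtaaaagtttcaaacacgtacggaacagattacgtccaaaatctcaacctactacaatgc

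All 117 members were above 0 in all 16 libraries. Their median mean level was 18.1 TPM, with members chosen at a mean of at least 5 TPM. For the 2620 rows with a mean of at least 1 TPM it was 15.9 TPM. The cut-offs differ, so these medians do not show whether members were more abundant than other rows. There were 13 members at 100 TPM or more, 61 between 10 and 100, and 43 under 10. The members were short, with a median span of 936 bases on the genome against 20336 for the other rows tested. No other row overlapped 63 of them. Of the 54 that did overlap a row, 24 shared its strand, and the sources used here do not say if reads were counted by strand.

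The 2 mitochondrial copies made up most of the members' summed level. Gm10925, identical to 678 bases of mt-Atp6 (a subunit of the mitochondrial ATP synthase), was the most abundant member. Its level was 7532, 7500, 7123 and 5995 TPM in the exon 2-3 controls and 13397, 14800, 13074 and 13955 TPM in the exon 2 controls. Gm10222 was the next most abundant, at 3102, 3018, 3073 and 2516 TPM in the exon 2-3 controls and 4736, 4411, 4942 and 5616 TPM in the exon 2 controls. Every exon 2-3 control was below every exon 2 control for both. The 117 members summed to 15962 ± 933 TPM (SD, n = 4) in the exon 2-3 controls and 22988 ± 868 in the exon 2 controls. Without these 2 rows the order was the other way round, with 5997 ± 73.1 TPM in the exon 2-3 controls and 4256 ± 161 in the exon 2 controls. The genes of the mitochondrial genome themselves were not analysed here.

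The first comparison set the controls of the 2 lines against each other. Of the 89 members with a mean of at least 5 TPM in each of the 4 groups, 51 were higher in the exon 2-3 controls, among them 17 of 20 ribosomal protein copies, and 11 were lower, among them both mitochondrial copies. Differences are log2 fold changes of TPM + 1, exon 2-3 controls minus exon 2 controls, tested with limma over 2620 rows with Benjamini-Hochberg adjustment at 0.05. Of the 117 members, 85 passed, with 73 above and 12 below the exon 2 controls. That count includes members included through the groups in which they are high, whose direction follows from the rule. Of the 89, 69.7% passed. Among all rows tested 52.6% passed, 14.4% higher and 38.1% lower. The 2 sets of controls did not overlap for 61 of the 89, beside 45.5% of all rows. The median difference was 0.37 over the 89 and -0.14 over all rows. After centring each library on its median, the median over all rows moved to 0.04, the split over all rows became 729 higher among 1263 that passed, and 70 of the 89 passed, 62 of them higher. The 4 libraries of a group share their line and batch, so these p-values measure the spread between libraries only. Cell type markers differed between the same controls. The 7 cardiomyocyte markers summed to 17241 to 18769 TPM in the exon 2-3 controls and 12820 to 14903 in the exon 2 controls, the 4 epicardial or fibroblast markers held (Dcn, Lum, Tcf21 and Col1a1) to 126 to 140 and 168 to 261, and the 2 myeloid markers (Ptprc, near 0, and Cd68) to 2.50 to 4.36 and 5.22 to 6.96. Not every marker followed its sum. On average Hand1 was at 62.67 and 67.55 TPM, Pln at 624 and 656, and Gja1 at 282 and 298 in the exon 2-3 and exon 2 controls. Dcn was at 45.96 and 39.22 TPM in the same order. The part of the markers in the members' differences was not tested. In bulk tissue fewer cells of a type and less RNA per cell cannot be told apart.

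In 25 members the mean reached 5 TPM in both exon 2-3 groups and not in both exon 2 groups. Such members are included through the groups in which they are high, so the direction of the 22 that passed, all higher, is no finding. In 2 members, Gm25117 and Gm12571, it was an exon 2-3 group that fell under 5 TPM, and in Gm30786 a cKO group of each line did. Below, values of such members are given as a description, with no test, and counts of members that passed between the controls are taken over the 89. Of the Gm-numbered rows with a mean between 1 and 5 TPM, 125 had a mean of at least 1 TPM in each group; 33 were higher and 17 lower, with a median of 0.03.

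**Figure D1:**
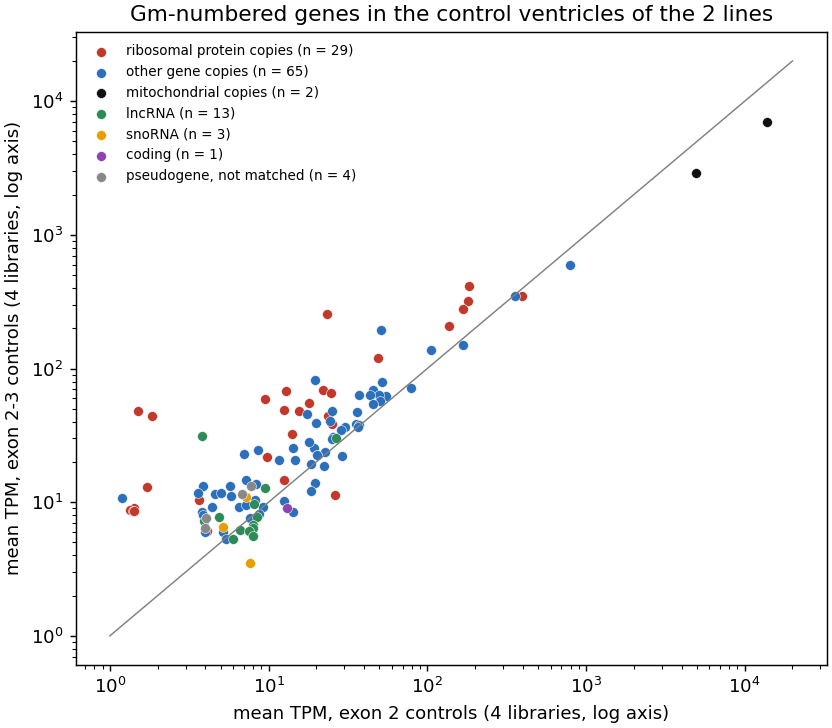
Mean TPM of each of the 117 members in the 4 exon 2 controls (horizontal, log axis) and the 4 exon 2-3 controls (vertical, log axis), coloured by kind, with the line of equal levels. Ribosomal protein copies lie mostly above the line, and the 2 mitochondrial copies, the most abundant members, lie below it. For members under 5 TPM in the groups of a single line the side follows from the rule.

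Of the 20 ribosomal protein copies with a mean of at least 5 TPM in each group, 17 stood higher and 2 stood lower in the exon 2-3 controls, with a median of 1.16. Gm3699, the copy of Rpl41 printed above, stood at 273, 257, 254 and 241 TPM in the exon 2-3 controls and at 24.3, 20.8, 20.8 and 27.7 TPM in the exon 2 controls. The groups did not overlap, and its log2 fold change was 3.41 ± 0.21 (SE; limma, adjusted p = 2.92e-09). Gm15454, a copy of Rpl29 (large subunit), stood at 59.4 ± 2.24 TPM against 9.54 ± 0.95 (SD, n = 4 each), a log2 fold change of 2.52 ± 0.13.

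The other 9 ribosomal protein copies were under 5 TPM in the exon 2 groups, so they are members through the exon 2-3 libraries, and their direction follows from the rule. The largest log2 fold changes listed were among them. Gm7413, a copy of Rpl23a, stood at 50.1, 46.6, 50.3 and 45.9 TPM in the exon 2-3 controls and at 1.88, 1.33, 1.27 and 1.55 TPM in the exon 2 controls. Its log2 fold change was 4.30. Gm8942, a copy of Rps24 (a small-subunit protein), stood at 43.8, 43.3, 46.0 and 43.9 TPM against 2.21, 1.57, 2.68 and 0.916 TPM, a log2 fold change of 4.03. The lowest exon 2-3 control was many times the highest exon 2 control for both.

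Not all copies stood higher. Gm19810, a copy of Rps21 (small subunit), stood at 9.53, 11.47, 13.4 and 11.3 TPM against 40.2, 18.6, 26.3 and 20.4 TPM, and its log2 fold change was -1.09 ± 0.20 (limma, adjusted p = 0.000388). In each of the 17 alternatives tried, between 18 and 20 of the 20 copies passed and 17 or 18 were higher.

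The genes that encode ribosomal proteins mostly leaned the same way, but by less. Of the 13 such coding genes held, 6 rose above and 1 (Rpl23a) fell below its level in the exon 2 controls, with a median of 0.18. A positive log2 fold change was found for 11 of the 13. Their sum was 12167 to 13459 TPM in the exon 2-3 controls and 10404 to 12941 in the exon 2 controls, so the groups overlapped. That sum includes Rpl23a, at 446 to 479 TPM in the exon 2-3 controls and 1179 to 1373 in the exon 2 controls. Its opposite difference brought the summed levels closer, so their overlap does not describe the other coding genes. The sum of the 20 copies was 2491 to 2546 TPM in the exon 2-3 controls and 1228 to 1459 in the exon 2 controls, with a wide gap.

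**Figure D2:**
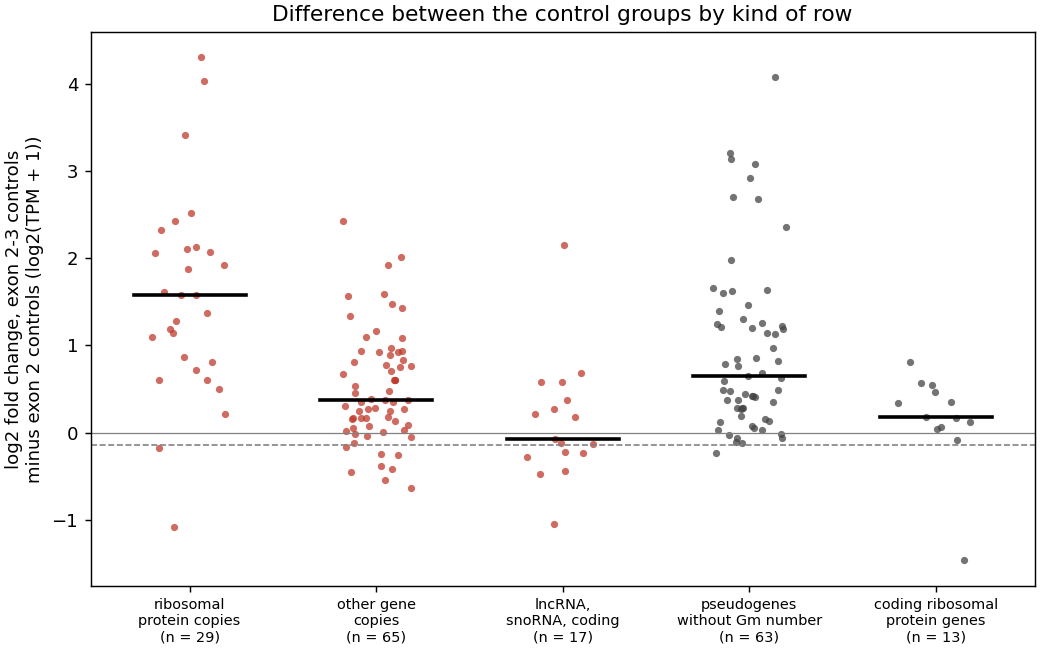
Log2 fold change of each row between the control groups (exon 2-3 minus exon 2), by kind of row, with the median as a bar; red points are members, including those that were under 5 TPM in a group, and grey points other rows. The dashed line is the median of all 2620 rows tested, -0.14; the 2 mitochondrial copies and the 4 pseudogenes not matched to a parent are not drawn.

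Copies of other genes were also more often higher than lower. Of the 54 with a mean of at least 5 TPM in each group, 29 were higher and 5 lower, with a median of 0.29. Gm11663, a copy of Hmgn1 (a nucleosome-binding protein), is among the other 11, so its direction follows from the rule. It stood at 10.96, 11.52, 9.76 and 10.7 TPM in the exon 2-3 controls and at 1.44, 1.21, 0.784 and 1.35 TPM in the exon 2 controls, a log2 fold change of 2.43. Gm6477, a copy of Npm1 (nucleophosmin, a nucleolar protein), was lower in the exon 2-3 controls, 12.2 ± 0.59 TPM against 18.5 ± 4.00 (SD, n = 4 each; log2 fold change -0.55 ± 0.12, limma adjusted p = 0.00132). Its parent Npm1 was at 878 ± 27.0 TPM and 787 ± 93.5.

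Gapdh copies differed among themselves. The most abundant, Gm12033, was at 592 ± 35.0 TPM in the exon 2-3 controls and 793 ± 30.6 in the exon 2 controls, a log2 fold change of -0.42 ± 0.07 (limma, adjusted p = 0.000122). Gm12070 did not pass, at 351 ± 23.5 and 359 ± 19.2 TPM. Of the other 4, which were all under 50 TPM in each control group, 3 were higher in the exon 2-3 controls.

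Other abundant members were mostly higher in the exon 2-3 controls. Gm10275 (copy of Rpl12) was at 318 ± 3.94 and 181 ± 18.3 TPM in the exon 2-3 and exon 2 controls, Gm6136 (copy of Rpl6) at 279 ± 8.53 and 169 ± 5.82, and Gm2000 (copy of Rpl35) at 208 ± 12.4 and 138 ± 18.1 (SD, n = 4 each). All 3 copies of large-subunit genes passed as higher in the exon 2-3 controls. Gm10039, a copy of Atp5g1 (a subunit of the mitochondrial ATP synthase), was at 150 ± 12.6 and 169 ± 14.5 TPM and did not pass (limma, adjusted p = 0.0537). It passed as lower in 5 of 17 alternatives, and its sign turned to 0.013 after median centring.

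Gm-numbered pseudogenes were not alone. Of 53 pseudogenes that carry no Gm number and had a mean of at least 1 TPM in each group, 35 passed, each with the exon 2-3 controls above the exon 2 controls, and the median was 0.59. Among all 2467 rows with that level in each group, 59 passed with a log2 fold change of at least 1, and 53 of them were pseudogenes of either naming. Of the 89 members 18 passed with such a difference, and 12 of those were ribosomal protein copies.

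Members of other kinds were mixed. Of the 9 lncRNAs with a mean of at least 5 TPM in each group, 2 were higher and 1 lower, with a median of -0.13 (0.06 after median centring). Gm46178, an lncRNA named after its values were seen, was at 9.38, 17.03, 89.6 and 8.47 TPM in the exon 2-3 controls and 2.03, 2.32, 6.11 and 4.87 TPM in the exon 2 controls. Its mean was under 5 TPM in the exon 2 controls, and 1 exon 2-3 control stood far above the other 3. Of the 4 pseudogenes without a matched parent, Gm9450 and Gm40815 had a mean of at least 5 TPM in each group and were higher, and Gm8283 and Gm5048 were under it in the exon 2 line. In this comparison the coding member Gm7694 was lower, at 9.11 ± 0.90 TPM against 13.0 ± 0.73 (SD, n = 4 each). The snoRNA Gm25117, which lies within Nap1l1 on the same strand, stood at 2.62, 3.99, 1.28 and 6.12 TPM in the exon 2-3 controls and at 8.73, 8.19, 6.01 and 7.49 TPM in the exon 2 controls. The groups overlapped slightly, and its log2 fold change was -1.05; it is a member through the exon 2 libraries. For the mitochondrial copies the log2 fold changes were -0.98 ± 0.09 for Gm10925 (limma, adjusted p = 1.74e-07) and -0.75 ± 0.10 for Gm10222 (limma, adjusted p = 1.97e-05). Quantile normalisation, which sets the top row of every library to one value, left Gm10925 at 0.

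Rpl23a is on chromosome 11 (78180935 to 78183584, minus strand), so the gene and its 6 copies could be followed together. Rpl23a was at 479, 455, 446 and 459 TPM in the exon 2-3 controls and at 1345, 1373, 1199 and 1179 TPM in the exon 2 controls, a log2 fold change of -1.47 ± 0.11 (limma, adjusted p = 4.04e-08). Of the 6 copies, 5 were under 5 TPM in the exon 2 groups, so only the direction of Gm10335 is not fixed by the rule. Gm10335, which differs from Rpl23a by 1 base over the 468 bases compared, stood at 419, 405, 417 and 414 TPM against 159, 196, 162 and 215 TPM, a log2 fold change of 1.18 ± 0.12 (limma, adjusted p = 1.39e-06). The gene and this copy thus differed in opposite directions, with no overlap between the control groups in either row.

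The other 4 copies, Gm8112, Gm8264, Gm8137 and Gm8158, lie within a short region of chromosome 10 (named here after their values were seen). They are 99.1% to 100% identical to each other, and Gm8112 and Gm8158 are the same over 465 bases. Their levels nearly coincided, with means of 9.001, 8.75, 8.66 and 8.54 TPM in the exon 2-3 controls and 1.43, 1.35, 1.40 and 1.41 in the exon 2 controls, so they are not 4 independent measurements. The 6 copies, most of whose sum is Gm10335, summed to 497 ± 10.8 TPM in the exon 2-3 controls and 190 ± 24.9 in the exon 2 controls. Rpl23a and the copies together summed to 957 ± 19.0 and 1464 ± 97.6 TPM (SD, n = 4 each).

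**Figure D3:**
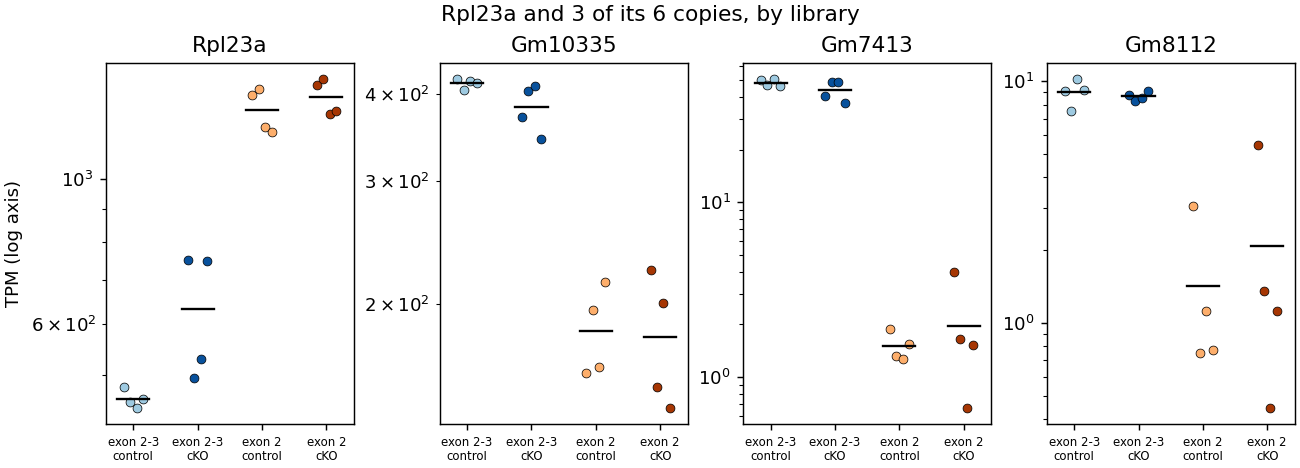
TPM of Rpl23a and 3 of its 6 copies in each of the 16 libraries (log axes that differ between panels), with the group mean as a bar. In the exon 2-3 controls Rpl23a is lower, and Gm10335, Gm7413 and Gm8112 are higher, than in any exon 2 control. The direction of Gm7413 and Gm8112 follows from the rule.

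Parents were among the rows held for 19 copies. Of the 12 among them with a mean of at least 5 TPM in each group, 10 had a log2 ratio of copy to parent that did not overlap between the control groups, higher in the exon 2-3 controls for 6 and lower for 4. No test is given for this count because copies share parents. For Gm3699 the mean log2 ratio to Rpl41 was -2.85 in the exon 2-3 controls and -6.34 in the exon 2 controls, while Rpl41 itself was at 1848 ± 73.7 and 1966 ± 243 TPM. Gm5526, a copy of Myl6 (a myosin light chain; named after its values were seen), had ratios of -4.17 and -5.89, with Myl6 at 1508 ± 94.5 and 1233 ± 119 TPM.

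The second comparison set the exon 2-3 cKO against its controls, and few members moved. Of the 117, 5 passed, all lower in the cKO, beside 6.72% of all 2620 rows (2.56% lower and 4.16% higher). That makes 4.27% of the members, a share near the background. The members' median log2 fold change was -0.03, beside 0.03 over all rows. An unadjusted p under 0.05 was found for 24 of the 117 members and 552 of the 2620 rows, which are similar shares. The groups did not overlap for 12 members, beside 14.5% of all rows. All 5 are copies of genes outside the ribosome, and none of the 29 ribosomal protein copies passed (0 with an unadjusted p under 0.05; median 0.0058).

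Gm15452, the copy of Cks2 printed above, stood at 28.5, 25.3, 24.7 and 24.1 TPM in the controls and at 18.0, 17.6, 18.0 and 17.7 TPM in the cKO. Its log2 fold change was -0.50 ± 0.06 (limma, adjusted p = 0.00213). Gm4739, a copy of Hmgb2 (a chromatin protein of dividing cells), stood at 62.2, 64.1, 60.2 and 66.9 TPM in the controls and at 39.6, 46.7, 48.3 and 48.0 TPM in the cKO, a log2 fold change of -0.47 ± 0.07 (limma, adjusted p = 0.00573). The groups were well apart for both, and both passed in all 17 alternatives.

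Gm3571, a copy of Fdps (farnesyl diphosphate synthase, an enzyme of sterol synthesis), stood at 13.3, 12.1, 14.9 and 14.5 TPM in the controls and at 9.02, 9.60, 8.54 and 11.02 TPM in the cKO, a log2 fold change of -0.48 ± 0.09 (limma, adjusted p = 0.0184). Gm10075, a copy of Hmgb1, stood at 30.3, 26.97, 25.99 and 28.7 TPM against 20.96, 22.1, 23.2 and 22.9 TPM, a log2 fold change of -0.32 ± 0.07 (limma, adjusted p = 0.0232). The groups did not overlap for either. Gm3571 failed the threshold in 3 of 17 alternatives and Gm10075 in 5.

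Gm4204, a copy of Nap1l1 (a histone chaperone), stood at 141, 135, 128 and 145 TPM in the controls and at 122, 112, 114 and 121 TPM in the cKO. Its log2 fold change was -0.23 ± 0.06 (limma, adjusted p = 0.0402), and it failed the threshold in 9 of 17 alternatives. The parent Nap1l1 had a log2 fold change of -0.17 ± 0.05 and did not pass (limma, adjusted p = 0.087). The parents Cks2, Hmgb2, Fdps and Hmgb1 were not analysed here, and the copies are close enough to them that a change of the parent cannot be told apart from a change of the copy.

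**Figure D4:**
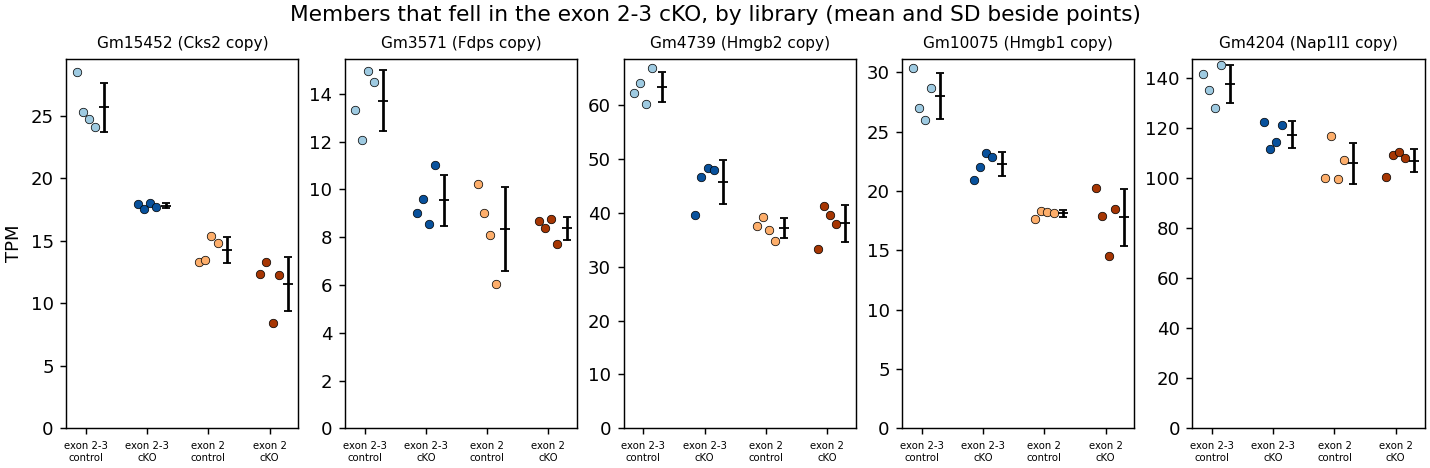
TPM of the 5 members that fell in the exon 2-3 cKO, in each of the 16 libraries from 0, with the group mean and SD beside the points. In all 5 the exon 2-3 controls lie above the exon 2-3 cKO libraries, and in none did the exon 2 cKO pass the test.

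The count depended on the libraries kept and on the scale, and so did the count over all rows. Leaving out exon 2-3 cKO replicate 3 or replicate 1 left 2 of the 5 members, and leaving out cKO replicate 2 or control replicate 1 left 3 each. Without cKO replicate 1 the lncRNA Gm51895 passed as higher. Over all 2620 rows, 176 passed in the main fit and 70 to 190 with a library left out. The 3 rescaled analyses were quantile normalisation, median centring, and rescaling by the sum of rows other than hemoglobin and Gm-numbered rows. They gave 13 members each, the 5 among them, beside 311, 343 and 285 of all 2620 rows in that order. All 13 members were lower in the first and second analysis. In the third, 11 were lower and 2 (Gm51863 and Gm5525) higher.

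Of the 65 copies of genes outside the ribosome, 13 had a positive log2 fold change, beside 1533 of all 2620 rows. Their median was -0.10. All 4 Hmgb1 copies had negative log2 fold changes (-0.15 to -0.32), and 1, Gm10075, passed. All 6 Gapdh copies were negative (-0.06 to -0.20) and none passed. Median centring left every sign in both families as it was and let 4 Gapdh and 2 Hmgb1 copies pass. For Rpl23a, the gene was at 750, 495, 530 and 748 TPM in the cKO and its 6 copies summed to 461 ± 35.3 TPM (SD, n = 4). The gene did not pass (log2 fold change 0.43 ± 0.13, limma adjusted p = 0.088), and neither did any copy; 3 copies were positive and 3 negative.

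Of the 13 lncRNAs, 11 had a positive log2 fold change, beside 1533 of all 2620 rows, with a median of 0.17. After median centring 8 of them were positive. None passed in limma's test (4 with an unadjusted p under 0.05). The 2 nearest the threshold, named after their values were seen, were Gm51863 and Gm51895. Gm51863 stood at 7.01, 6.82, 5.73 and 7.36 TPM in the controls and 11.3, 8.41, 7.60 and 10.3 TPM in the cKO (log2 fold change 0.42 ± 0.12, limma adjusted p = 0.081). Some alternatives called these lncRNAs, in the direction opposite to the 5 members. Gm51863 passed as higher in 3 of 17 (the rescaling without hemoglobin, one fit over 16 libraries and the replicate block) and Gm51895 in 2 (the replicate block and without cKO replicate 1).

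Other values moved between the same groups. The 4 epicardial or fibroblast markers summed to 126 to 140 TPM in the exon 2-3 controls and 191 to 237 in the cKO, and each was higher on average in the cKO. The 4 erythroid markers (Hba-x, Hba-a1, Hba-a2 and Slc4a1) ranged from 2995 to 4554 TPM in the controls and from 1512 to 11293 in the cKO. The 2 myeloid markers summed to 2.50 to 4.36 and 4.11 to 6.21 TPM. Their part in these differences was not tested either.

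The third comparison set the exon 2 cKO against its controls. None of the 117 members passed in limma's test, beside 0.0763% of all rows. An unadjusted p under 0.05 was found for 4 members and for 84 of the 2620 rows, which are similar shares. The groups did not overlap for 3 members, beside 1.83% of all rows. The median log2 fold change was 0.01 over the members and -0.01 over all rows. The 4 were Gm12191, Gm10145, Gm11993 and Gm15452, named after their values were seen, and the 3 without overlap were Gm15452, Gm11993 and Gm12226. Gm12191 and Gm10145 were uneven among their replicates. Gm12191, a copy of Rpl30 within Cnot6 on the same strand, stood at 7.79, 54.2, 18.7 and 114 TPM in the controls and at 115, 88.7, 91.2 and 72.4 TPM in the cKO. One control was nearly as high as the highest cKO library, and the log2 fold change of 1.502 ± 0.62 did not pass. Gm10145, a copy of Ube2l3 (a ubiquitin-conjugating enzyme), stood at 13.7, 8.21, 9.86 and 27.1 TPM in the controls and at 31.2, 14.0, 31.6 and 31.3 TPM in the cKO, again with overlap. Gm15452, the Cks2 copy that fell in the exon 2-3 cKO, was at 13.3, 13.4, 15.4 and 14.8 TPM in the exon 2 controls and 12.3, 13.3, 8.42 and 12.2 TPM in the exon 2 cKO. The groups just missed overlapping, and its log2 fold change of -0.29 ± 0.12 did not pass (limma, adjusted p = 0.999).

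Among the 29 ribosomal protein copies 24 had a positive log2 fold change in the exon 2 line, beside 1131 of all 2620 rows. Their median was 0.08. The exon 2 cKO replicate 1 was the highest of the 8 libraries for 23 of the 29. Without that library, 8 of 29 were positive and the median was -0.13. The sum of the 29 copies was 1645 TPM in that library and 1323 to 1445 in the other 3, while the coding ribosomal protein genes summed to 11266 TPM there and 10436 to 11406 in the others.

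**Figure D5:**
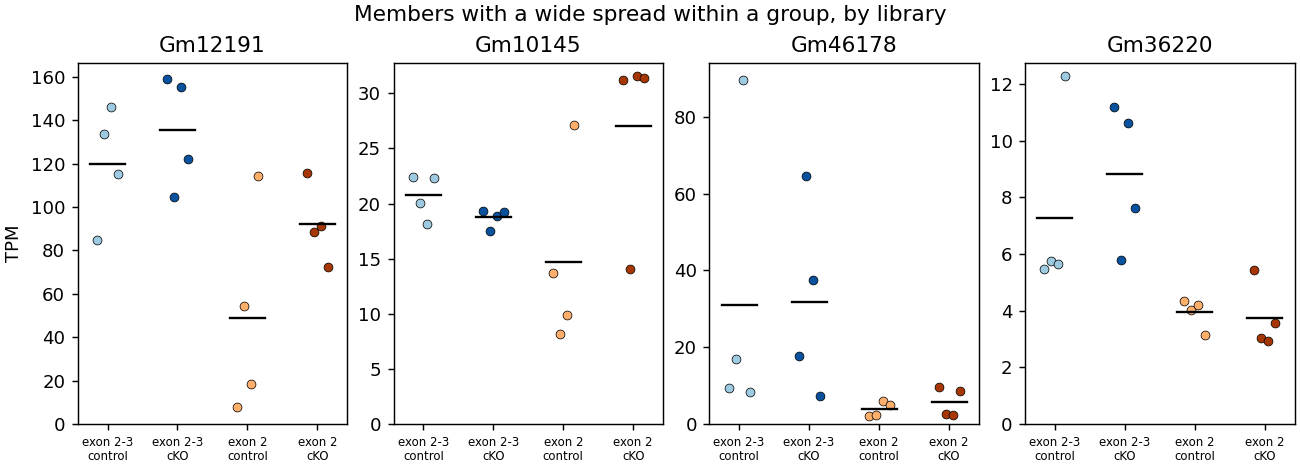
TPM of 4 members with a wide spread within a group, in each of the 16 libraries from 0, with the group mean as a bar. In the exon 2 controls Gm12191 runs from 7.79 to 114 TPM, and in the exon 2-3 controls Gm46178 has 1 library at 89.6 TPM and 3 at 17.03 or below.

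The cKO effects of the 2 lines were compared with an interaction term over all 16 libraries. Of the 117 members, 1 passed, with a negative difference, beside 2.37% of all rows (1.6% positive and 0.763% negative). Gm4739, the Hmgb2 copy, was at 37.5, 39.3, 36.9 and 34.8 TPM in the exon 2 controls and at 33.3, 41.25, 39.7 and 37.9 TPM in the exon 2 cKO. The exon 2 groups overlapped fully, and the effect in the exon 2-3 line minus that in the exon 2 line was -0.50 ± 0.10 (limma, adjusted p = 0.0151). The other 4 members that fell in the exon 2-3 cKO had differences of -0.21 (Gm15452), -0.51 (Gm3571), -0.28 (Gm10075) and -0.24 (Gm4204), and none of these passed.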

How the data were processed

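RNA-seq libraries of 16 ventricle samples were grouped by the line and genotype in their titles. The authors deposited 1 table of TPM values, with 16 columns matched to samples by the names in their descriptions. The submitters' processing notes name FastQC, Trim Galore 0.6.7, HISAT2 2.2.1, StringTie 2.2.1, featureCounts, DESeq2 and GRCm38, without their roles. The labels' texts differ on library preparation (stranded mRNA or depletion of ribosomal RNA). The table was held in part, and 1 incomplete line was left out. In 5919 of 5921 rows the coordinates were those of RefSeq GRCm38.p6. Sequences are from GENCODE M21, in which 104 of the 117 members had a transcript; parents were the closest matches by blastn 2.17.0.

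The scale was log2(TPM + 1), on which changes of low rows are understated, for 2620 rows with a mean of at least 1 TPM, with limma 3.58.1 in R 4.3.3 (eBayes with intensity trend, two-sided). Each line was fitted on its 8 libraries; the interaction and the control contrast were contrasts of 1 model with a mean per group, over all 16. All p-values were adjusted over the 2620 rows. The script was tested on simulated data. In each comparison the 5 largest positive and 5 largest negative differences among members that passed, the 10 most abundant, and the 3 on either side of the level of 5 TPM are named; others are said to be named after their values were seen, or given within a gene family or by count; 1 abundant member that this rule names is not reported here and stays in every count and fit. The members, marker lists and ribosomal protein list were chosen with earlier results of these data known. Alternatives were a pseudocount of 0.1, no filter, a minimum mean TPM of 5, quantile normalisation, median centring and rescaling without hemoglobin and Gm-numbered rows. Others were one fit over all libraries, the controls alone, a replicate block, no trend, and leaving out each library. The rescaling leaves every member out of the sum that sets the scale. Tables and figures used Python 3.11.15, pandas 2.3.3 and matplotlib 3.10.9.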

Additional observations from a re-analysis of the deposited data

Results flagged for a closer look

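In 36 members named or shown, 144 groups of 4 libraries were examined for a single library far from the other 3, and 14 were found. Chance gives about 1 group in 20 for groups not chosen by their values, and that rate does not apply here, because some members were named for an uneven library and near-identical copies are counted apart. The exon 2 cKO replicate 1 was such a library for Gm10222 (5838 TPM against 4944 to 5006 in the other 3), Gm8158 (5.31 TPM against 0.610 to 1.37) and Gm5526 (34.9 TPM against 17.3 to 18.5), each time as the highest. The exon 2 control replicate 1 was the highest for 3 near-identical copies of Rpl23a, with 3.06 TPM for Gm8112, 2.54 TPM for Gm8264 and 2.82 TPM for Gm8137, where the other controls were at 1.12 TPM or below. A pair of lncRNAs had a high exon 2-3 control: Gm46178 was at 89.6 TPM in replicate 3 against 8.47 to 17.03 in the others, and Gm36220, which contains Snord104, was at 12.3 TPM in replicate 4 against 5.46 to 5.77. Gm35546 was at 10.1 TPM in exon 2 cKO replicate 3 against 6.62 to 7.19.

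Low libraries were Gm10145 at 14.0 TPM in exon 2 cKO replicate 2 against 31.2 to 31.6, Gm19810 at 7.45 TPM in exon 2-3 cKO replicate 2 against 12.0 to 12.8, and Gm10222 at 2516 TPM in exon 2-3 control replicate 4 against 3018 to 3102. Gm6477 was at 15.3 TPM in exon 2 cKO replicate 4 against 19.6 to 20.2, and Gm10039 at 129 TPM in exon 2-3 cKO replicate 1 against 136 to 137. The effect of the cKO on Gm4739 differed between the lines by -0.50 on the log2 scale.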

How the results depend on the processing

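Between the control groups 62 of the 89 members with a mean of at least 5 TPM in each group passed. That count stayed between 59 and 65 when a library was left out, and between 60 and 70 in the other alternatives. In the exon 2-3 cKO the count of 5 became 3 with no filter. It became 13 with quantile normalisation, with median centring, and with rescaling without hemoglobin and Gm rows. Leaving out a library gave 2 to 7 (with 3 without cKO replicate 1, of which 1 was the lncRNA Gm51895, higher). Over all rows the count of 176 of 2620 became 95 of 5564 with no filter. It became 311, 343 and 285 of 2620 in the 3 rescaled analyses, and 70 to 190 with a library left out. For the difference of the cKO effects the count of 1 became 2 with quantile normalisation and with the rescaling, and was 1 to 2 with a library left out (2 without exon 2 control replicate 4 or exon 2 cKO replicate 3). The exon 2 cKO count was 0 throughout. The causes were not tested. Between the control groups, 2 abundant members changed sign: Gm10039 (0.013 after median centring) and Gm12070 (0.145 after median centring, 8.98e-05 after quantile normalisation, and -0.059 to 0.011 with a library left out, the highest without exon 2-3 control replicate 3). Of 766 values for 43 results on single members, 726 kept direction and side of the threshold, 23 fell below it and 13 passed it. Some of these results are for members under 5 TPM in a group, whose side of the threshold between the controls is no finding. Gm46178 and Gm36220 each had 1 high exon 2-3 control, replicate 3 and replicate 4, and are given with no test. Over the alternatives their log2 fold changes between the controls ran from 1.42 to 2.50 and from 0.43 to 0.86.

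Same-numbered libraries did not meet the criterion for pairing (correlations of deviations -0.0287 to 0.211 in the exon 2-3 line and 0.0639 to 0.200 in the exon 2 line, where 7 of 8 libraries correlated best with their own number). With the replicate number as a block the count in the exon 2-3 cKO was 6, beside 149 of all 2620 rows. The 6 members were 4 of the 5, without Gm10075, and the lncRNAs Gm51863 and Gm51895 as higher. The count was 0 in the exon 2 cKO and 1 for the difference, and between the controls 62 of the 89 passed. Depth is unknown, and reads shared by copies and parents limit each copy's level.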
